A study of Mus musculus with 17 samples.

Results

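The protein coding genes of the potassium channels were described in the left ventricular apex of mice 3 weeks after pressure overload or Sham surgery. Members were all protein coding genes whose symbol is Kcn followed by family letters and a number, which gave 70 of the 21798 genes listed. Another 2 symbols with this pattern, Kcnd3os and Kcnq1ot1, are non-coding antisense genes and were left out. Of the 70 members, 49 reached 0.5 CPM (a gene's share of all counts in its library, scaled to a fixed total) in at least 3 of the 17 libraries and were tested among 16218 genes. The other 21 stayed below that filter, with mean CPM between 0.0282 and 0.356, and none of them was at 0 in every library. All mice were male C57Bl6/J, 7 to 8 weeks old at surgery, and each gave 1 library. Sham Veh mice (n = 5) had Sham surgery and saline Vehicle, and Sham 29P mice (n = 3) had Sham surgery and 29P. TAC Veh mice (n = 3) had transverse aortic constriction (TAC), a band around the aorta that overloads the left ventricle, and Vehicle, and TAC 29P mice (n = 6) had TAC and 29P. 29P is an orally taken RGD-mimetic that binds αvβ3 integrin, given by gavage 6 times at 50 μg/kg from 1 week after surgery. The p-values given measure the spread between these mice.

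Potassium channels let potassium leave the cell and so end each cardiac action potential and hold the resting potential. Voltage-gated pores (among them the Kcna, Kcnd, Kcnh and Kcnq families) carry the transient outward and delayed rectifier currents. Inward rectifiers (Kcnj) carry the resting current IK1, the acetylcholine-gated current of the atria and the ATP-sensitive current, and 2-pore channels (Kcnk) carry background currents. Auxiliary subunits (Kcne, Kcnip, Kcnab, Kcnmb) bind these pores and set their gating or surface level. Reduced repolarising potassium currents are a textbook feature of the overloaded ventricle.

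The libraries held an estimated 14.2 to 23.8 M reads, the lowest being the Sham 29P library S14. Working cardiomyocyte markers summed to between 26398 and 42710 CPM in the 17 libraries. Animal numbers fall into 4 separate ranges, called runs here, and the labels name no batch. The last run, of S18 (TAC 29P), S19 and S20 (both Sham Veh), stood apart, with the atrial light chain Myl7 at 335, 895 and 723 CPM against at most 1.002 in the other 14 libraries. Myl4 and Sln, also atrial, were at most 4.43 and 0.626 CPM in the others, and in these 3 libraries between 518 and 1207 and between 162 and 441. Changes after TAC are therefore given with and without these libraries where this bears on a call. The 16 mitochondrial-encoded genes took 29.1 to 38.8% of CPM in Sham Veh and 23.6 to 27.9% in TAC Veh libraries. On the deposited scale the median of all tested genes moved up after TAC, by 0.33 (log2) in Veh and by 0.36 in 29P mice. TMM factors, which scale each library on its less extreme genes, brought these medians to 0.01 and 0.02. Calls of channel genes after TAC are given on both scales, and sums of their CPM on the deposited scale alone.

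The promoters of 3 members were read from RefSeq on GRCm38.p6, the 250 bases before each start site, because Kcnj3 and Kcnj5 encode the subunits of 1 atrial channel and both fell in TAC Veh mice, and because Kcnd2, a pore of the transient outward current, was lower after TAC in 29P mice. Capitals mark a match to a motif of a cardiac transcription factor. The motifs searched on both strands were AGATAA for GATA factors, AGGTGT for T-box factors, CAAGTG for NKX2-5 and CTAAAAAT for MEF2, and none of them overlaps another in these windows. Kcnj3 lies on the plus strand (chr2:55435720-55435969), Kcnj5 on the minus strand (chr9:32344345-32344594) and Kcnd2 on the plus strand (chr6:21215096-21215345).
Kcnj3: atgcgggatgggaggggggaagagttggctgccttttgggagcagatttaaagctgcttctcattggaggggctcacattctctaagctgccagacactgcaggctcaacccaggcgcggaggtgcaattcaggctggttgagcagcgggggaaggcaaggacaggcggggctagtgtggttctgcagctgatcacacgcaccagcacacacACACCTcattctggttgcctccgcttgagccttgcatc
Kcnj5: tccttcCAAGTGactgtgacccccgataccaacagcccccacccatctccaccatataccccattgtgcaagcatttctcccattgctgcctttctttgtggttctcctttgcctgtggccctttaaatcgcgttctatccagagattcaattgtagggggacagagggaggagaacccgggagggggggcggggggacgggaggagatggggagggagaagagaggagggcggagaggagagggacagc
Kcnd2: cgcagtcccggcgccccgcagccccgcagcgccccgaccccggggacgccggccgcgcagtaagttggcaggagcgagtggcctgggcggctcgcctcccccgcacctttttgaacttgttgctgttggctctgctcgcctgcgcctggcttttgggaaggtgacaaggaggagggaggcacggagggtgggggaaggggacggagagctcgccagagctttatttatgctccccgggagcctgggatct
The Kcnj3 window holds ACACCT, the T-box motif on the other strand, 38 bases before the start, and the Kcnj5 window holds CAAGTG 244 bases before it. The Kcnd2 window holds none of the 4 motifs. Over all 32817 RefSeq promoter windows of this length, 11.8% hold the T-box and 11.6% the NKX2-5 letters, 9.99% the GATA and 1.01% the MEF2 letters. Windows of members on chromosomes 8 and 18 were left out, although the shares over all windows keep these chromosomes. For 48 members, with Kcnj3, Kcnj5 and Kcnd2 among them, 67 windows were counted. Of these, 8 hold the T-box, 11 the NKX2-5, 2 the GATA and 1 the MEF2 letters (11.9, 16.4, 2.99 and 1.49% of these windows). The Kcnj3 and Kcnj5 matches above are part of these counts.

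Per kb of annotated exon, the 2-pore background channel Kcnk3 (TASK-1) was the most abundant member, with a mean of 35.9 CPM per kb over the 17 libraries. It was followed by Kcnip2 (KChIP2, the subunit that carries Kcnd pores to the surface) at 28.7, the pore of the sarcolemmal ATP-sensitive channel Kcnj11 (Kir6.2) at 22.6 and its vascular counterpart Kcnj8 (Kir6.1) at 21.05 CPM per kb. The silent subunit Kcng2 stood at 13.1, the acetylcholine-gated subunits Kcnj5 and Kcnj3 at 11.4 and 10.8, the ultra-rapid delayed rectifier Kcna5 at 9.93, and the rapid delayed rectifier Kcnh2 (hERG) at 6.48 CPM per kb. Kcnq1, the pore of the slow delayed rectifier, was at 4.97 and Kcnd2 at 3.38 CPM per kb. Among the highest of the small families were Kcne4 at 2.13, Kcnn1 at 1.77, Kcnv2 at 1.15, Kcnt2 at 0.990, Kcnmb1 at 0.665, Kcnab2 at 0.385, Kcns1 (below the filter) at 0.0701 and Kcnma1 at 0.0246 CPM per kb. Without S18, S19 and S20, which carry atrial transcripts, Kcnj3 was at 7.74 and Kcna5 at 9.47 CPM per kb, which turned the order of these 2 genes. The summed CPM of the 70 members was 607.6 to 934.7 CPM in Sham Veh, 684 to 953 in Sham 29P, 652 to 823 in TAC Veh and 738 to 908 in TAC 29P libraries, so the groups overlapped. Reads were not stated to be counted by strand, and members with an antisense exon overlap (Kcnk3, Kcnj3, Kcng2, Kcnd3, Kcnq1, Kcnk2, Kcnt2, Kcnn1, Kcnn2, Kcnj15, Kcne3, Kcnma1, and the untested Kcnk1 among those named) may hold reads of the other strand.

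**Figure D1:**
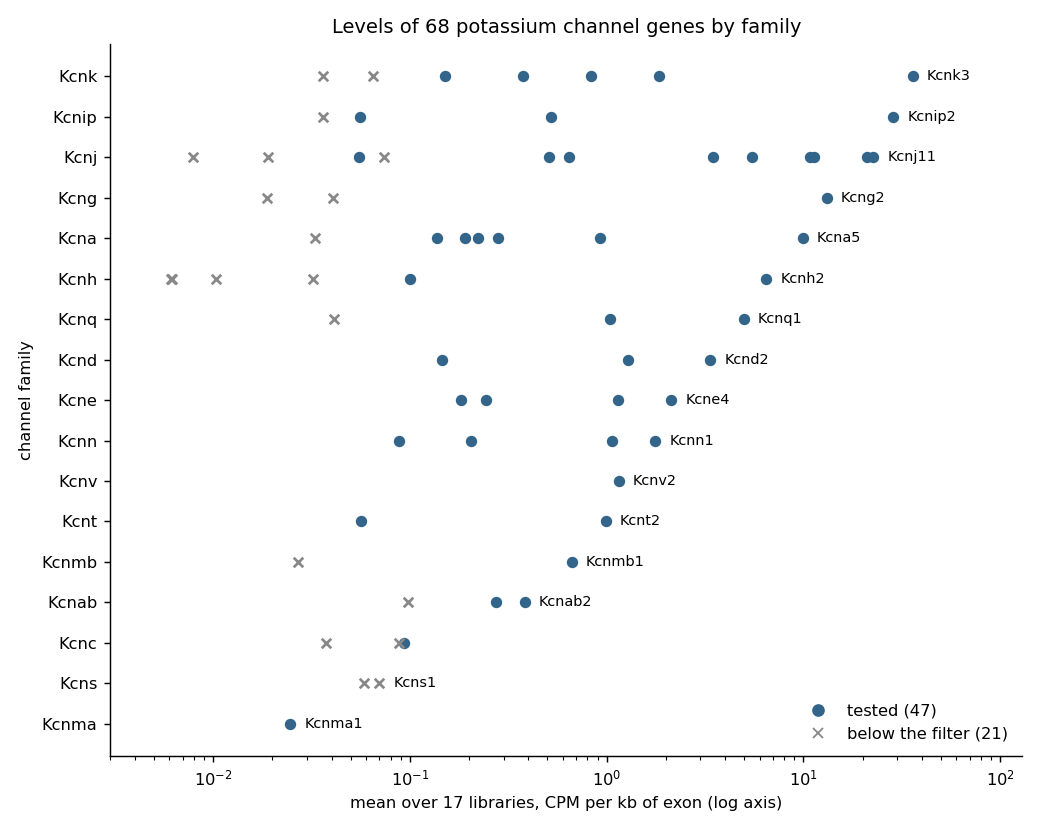
Mean CPM per kb of exon over 17 libraries (x, log axis) of 68 of the 70 members, in rows by family (y), with dots for 47 of the 49 tested and crosses for the 21 below the filter. Kcnk3, Kcnip2 and Kcnj11 lead at 35.9, 28.7 and 22.6, and for most families the highest gene is named beside its point.

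TAC Veh was compared with Sham Veh to ask which channel genes pressure overload moved without 29P. The TAC Veh group is not independent of this contrast, because a TAC Veh library that clustered with Sham mice had been taken out by the authors before deposit, which bears on each count and non-overlap that follows. With an adjusted p of 0.05 or less, 4 of the 49 tested members were lower (Kcnv2, Kcnj3, Kcna2 and Kcnj5) and 7 were higher (Kcne1l, Kcnj14, Kcnk2, Kcnd1, Kcnt2, Kcnn3 and Kcnk6). Of these, Kcne1l entered the tests only through TAC libraries. Over all genes tested, 1.98% were lower and 23.6% higher. With TMM factors 7 members were lower (Kcnv2, Kcnj3, Kcna2, Kcnj2, Kcnj5, Kcnd3 and Kcnk3) and 2 higher (Kcnk2 and Kcnj14), where 5.91% of all genes were lower and 4.25% higher. The 4 lower genes and Kcnk2 and Kcnj14 thus passed on both scales. The median log2 fold change of the 49 members was 0.23 (all genes 0.33), and −0.09 with TMM factors (all genes 0.01). Without S18 to S20, 4 members were lower (Kcnv2, Kcna2, Kcnj3 and Kcnj2) and 6 higher (Kcne1l, Kcnk13, Kcne4, Kcnj14, Kcnk2 and Kcnt2). In a fit that also held the 4 runs of animal numbers, Kcna2 (−0.94, adjusted p = 0.0645), Kcnj5 (−0.35, adjusted p = 0.180), Kcnk6 (0.46, adjusted p = 0.0910) and Kcnn3 (0.75, adjusted p = 0.0961) no longer passed, the other 7 did, and Kcne4, Kcnj2, Kcnj15 and Kcnk13 passed as well. Kcnk13, a 2-pore channel, was named after its values were seen. The 2 groups did not overlap for 10 of the 49 members, against 29.8% of all genes.

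**Figure D2:**
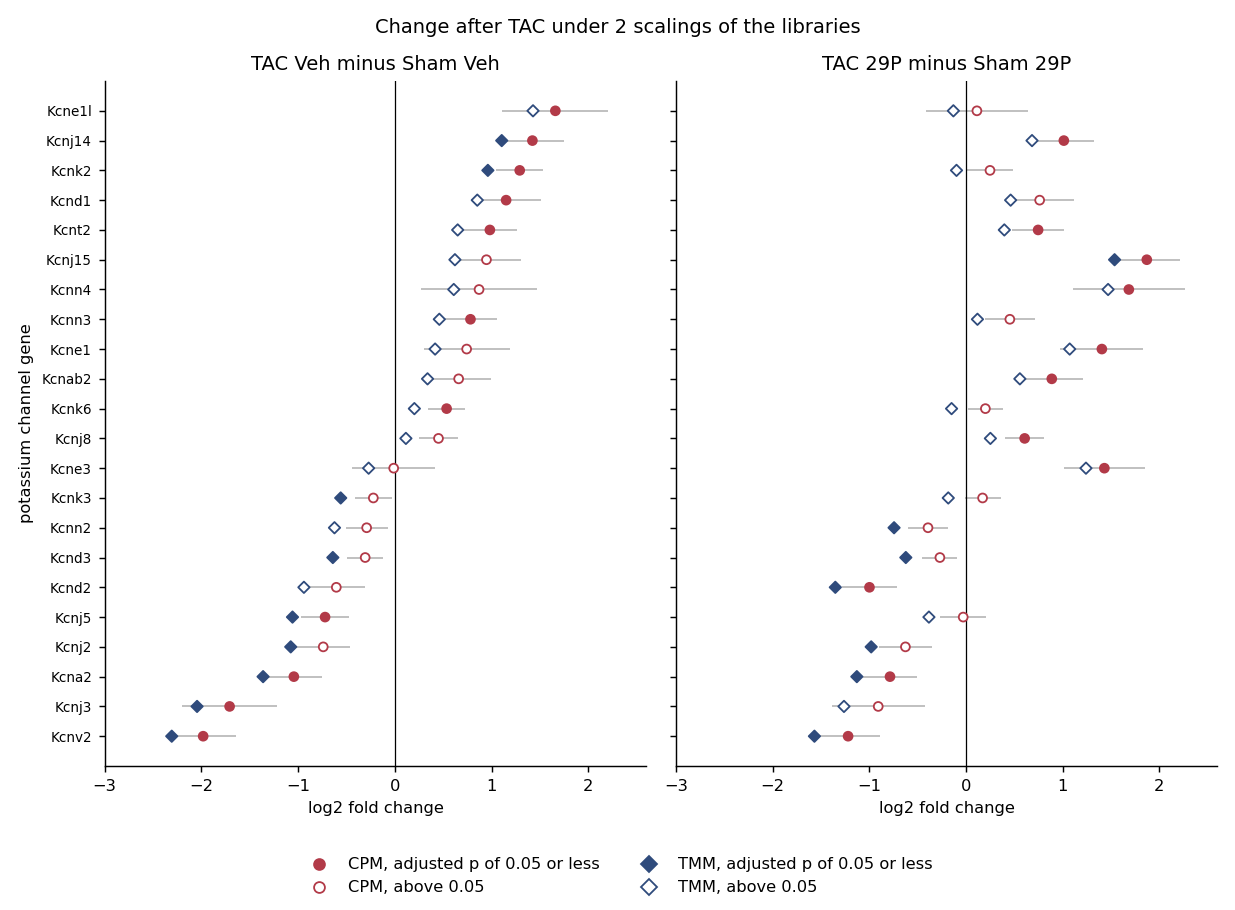
Log2 fold change (x) after TAC in Veh mice (left) and in 29P mice (right) of the 22 members (y) that passed in either comparison on either scale, with circles for CPM with their standard error and diamonds for TMM factors. Filled symbols have an adjusted p of 0.05 or less, and Kcnv2 and Kcna2 are filled on the low side on both scales in both panels.

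Beside the family counts that follow, 23.6% of all genes were higher and 1.98% lower, and 4.25 and 5.91% with TMM factors. Whether any family differs from these shares was not tested. Among the voltage-gated pores (31 members, 18 tested), 2 were lower and 1 higher, and with TMM factors 3 were lower and none higher, and the median was −0.03 and −0.33 on the 2 scales. Kcnv2 encodes a silent subunit (Kv8.2) that forms channels only together with other voltage-gated pores (chromosome 19, 27322588 to 27337179). Its CPM was 8.87, 6.49, 10.6, 6.97 and 10.9 in Sham Veh libraries (S5, S6, S13, S19 and S20) and 1.397, 4.84 and 1.33 in TAC Veh libraries (S2, S12 and S16). All 3 TAC Veh libraries lay below all 5 Sham Veh libraries, and S12 was the highest of the 3. Within the run S1 to S11, S2 stood at 1.397 against 8.87 and 6.49 CPM, and within S12 to S14, S12 stood at 4.84 against 10.6 CPM. The log2 fold change was −1.98 (SE 0.34, limma adjusted p = 0.00173), or 0.253-fold, and −2.31 with TMM factors (adjusted p = 0.000712). It was −1.96 without S18 to S20 (adjusted p = 0.00912), and each of the 8 fits that left out 1 Sham Veh or TAC Veh library kept the adjusted p at or under 0.0251. The exact two-sided permutation p = 0.0179 was the smallest that 56 arrangements allow. In bulk tissue, fewer cells of a type and less RNA per cell cannot be told apart, for Kcnv2 and for each gene that follows.

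Kcna2 (Kv1.2, best known from axons) was at 3.74, 2.46, 3.28, 2.06 and 2.20 CPM in Sham Veh and 1.497, 1.42 and 0.906 CPM in TAC Veh libraries, in the same order as above. The groups did not overlap. Its log2 fold change was −1.04 (SE 0.29, limma adjusted p = 0.0180), −1.36 with TMM factors (adjusted p = 0.00486) and −1.26 without S18 to S20 (adjusted p = 0.0185). The call was lost without S2 (−1.17, adjusted p = 0.0604) or S16 (−0.83, adjusted p = 0.0788). Of 8 Schwann cell and neuron markers, 5 were listed and 3 tested, the other 2 being at 0 in some libraries, and 1 of these, Dbh (noradrenaline synthesis), was lower after TAC in Veh mice at −1.04 (adjusted p = 0.0376), 2 with TMM factors. Their sum was 6.60 to 10.9 CPM in Sham Veh and 5.38 to 5.97 CPM in TAC Veh libraries, and the part of these cells in the Kcna2 change was not tested. Kcnd1 (Kv4.1) was higher, at 0.337 to 0.760 CPM in Sham Veh and 2.24, 1.08 and 0.800 CPM in TAC Veh libraries, with no overlap and a log2 fold change of 1.15 (SE 0.36, adjusted p = 0.0292). It did not pass with TMM factors (0.85, adjusted p = 0.122), nor without S18 to S20 (1.20, adjusted p = 0.0660), S6 (1.11, 0.0567), S19 (1.11, 0.0559) or S2 (0.75, 0.214, adjusted p in each case).

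The fast transient outward current of the mouse ventricle is carried by Kcnd2 and Kcnd3 with Kcnip2. Kcnd2 (Kv4.2) was at 18.6 ± 4.56 CPM (SD, n = 5) in Sham Veh and 12.4 ± 4.30 CPM (SD, n = 3) in TAC Veh mice, a log2 fold change of −0.61 that did not pass (SE 0.30, adjusted p = 0.129), nor with TMM factors (−0.94, adjusted p = 0.0683). Kcnd3 (Kv4.3) was at 12.8 ± 2.36 and 10.4 ± 2.92 CPM, a log2 fold change of −0.31 (adjusted p = 0.215) that passed with TMM factors only (−0.64, adjusted p = 0.0334). Kcnip2 was at 102 ± 33.2 and 88.6 ± 24.8 CPM (log2 fold change −0.17, adjusted p = 0.600, and −0.51 with TMM factors, adjusted p = 0.150). The summed CPM of the 3 genes ran from 94.1 to 169 in Sham Veh and from 87.3 to 147 in TAC Veh libraries, overlapping. Kcna4 (Kv1.4, the slow transient outward pore) was at 0.894 ± 0.112 and 1.16 ± 0.254 CPM and did not pass (adjusted p = 0.419).

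The delayed rectifier pores did not pass either. Kcna5 (Kv1.5) was at 27.1 ± 12.2 CPM (SD, n = 5) in Sham Veh and 43.3 ± 19.5 CPM (SD, n = 3) in TAC Veh mice (log2 fold change 0.69, adjusted p = 0.140). Kcnh2 was at 31.3 ± 9.47 and 27.4 ± 11.3 CPM (−0.23, adjusted p = 0.576), and Kcnq1 at 18.4 ± 4.77 and 22.3 ± 3.12 CPM (0.32, adjusted p = 0.248). Kcna7 was at 1.84 ± 0.613 and 2.24 ± 0.697 CPM (0.28, adjusted p = 0.539), and the silent subunit Kcng2 at 34.3 ± 8.82 and 40.0 ± 7.60 CPM (0.24, adjusted p = 0.430). With TMM factors the sign turned for Kcna7 and Kcng2 (−0.04 and −0.09) and for Kcnq1 (−0.02), without a call.

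Of the inward rectifiers (12 members, 9 tested), 2 were lower and 1 higher, and 3 lower and 1 higher with TMM factors. Kcnj3 (GIRK1) and Kcnj5 (GIRK4) form the acetylcholine-gated channel, which slows the atria and the sinus node on vagal stimulation. Kcnj3 (chromosome 2, 55435970 to 55598145) was at 47.99, 49.6, 55.6, 158 and 115 CPM in Sham Veh libraries, the last 2 being S19 and S20, and at 16.6, 32.3 and 22.5 CPM in TAC Veh libraries. The groups did not overlap, and the 2 highest values belonged to libraries with atrial transcripts. The log2 fold change was −1.71 (SE 0.49, limma adjusted p = 0.0209), −2.04 with TMM factors (adjusted p = 0.0162) and −1.15 without S18 to S20 (adjusted p = 0.0191). Within the run S1 to S11, S2 stood at 16.6 against 47.99 and 49.6 CPM, and within S12 to S14, S12 stood at 32.3 against 55.6 CPM. The call was lost without S2 (−1.48, adjusted p = 0.122) or S16 (−1.69, adjusted p = 0.0562).

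Kcnj5 (chromosome 9, 32314707 to 32344350), which the study itself picked out from these libraries, was at 57.7, 38.8, 56.9, 75.5 and 73.7 CPM in Sham Veh and 34.6, 55.0 and 23.9 CPM in TAC Veh libraries. The groups overlapped, since S12 lay above S6. The log2 fold change was −0.72 (SE 0.25, limma adjusted p = 0.0412) and −1.06 with TMM factors (adjusted p = 0.0101). Without S18 to S20 it was −0.49 and no longer passed (adjusted p = 0.148), whereas with TMM factors and without these libraries it did (adjusted p = 0.0411). The call was also lost without S13 (−0.73, adjusted p = 0.0510), S19 (−0.63, 0.0899), S20 (−0.64, 0.0743), S2 (−0.70, 0.143) or S16 (−0.43, 0.217). A ratio of the 2 subunits within a library does not depend on how libraries are scaled, and was chosen after the values were seen. Kcnj3 over Kcnj5 per kb was 0.747 to 1.15 in the 3 Sham Veh libraries without S19 and S20 and 1.885 and 1.399 in those 2. It was 0.432 to 0.846 in TAC Veh libraries, and the highest of these, S16, lay above the lowest Sham Veh library, S5.

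Kcnj2 (Kir2.1), the main pore of IK1, was at 42.0, 41.9, 26.4, 22.2 and 23.2 CPM in Sham Veh and 25.7, 23.8 and 9.33 CPM in TAC Veh libraries. The lowest Sham Veh values were those of S19 and S20, and the groups overlapped. On the log2 scale it differed by −0.74 (SE 0.28, limma adjusted p = 0.0581), and passed with TMM factors (−1.08, adjusted p = 0.0211) and without S18 to S20 (−1.01, adjusted p = 0.0306). Its homologue Kcnj12 (Kir2.2) was at 9.30 ± 2.76 CPM (SD, n = 5) in Sham Veh and 7.69 ± 3.54 CPM (SD, n = 3) in TAC Veh mice and did not pass (−0.33, adjusted p = 0.429). Kcnj4 (Kir2.3) was below the filter, at no more than 0.454 CPM in any library. Kcnj14 (Kir2.4) rose, from 0.967, 1.21, 1.52, 0.715 and 0.699 CPM in Sham Veh to 4.54, 2.98 and 1.60 CPM in TAC Veh libraries, with no overlap. It rose by 1.42 on the log2 scale (SE 0.32, adjusted p = 0.00714), or 2.68-fold, 1.11 with TMM factors (adjusted p = 0.0276), 1.14 without S18 to S20 (adjusted p = 0.0377) and 1.08 without S2, where it did not pass (adjusted p = 0.0761). It did not pass with TMM factors and without S18 to S20 (adjusted p = 0.127). The ATP-sensitive pores Kcnj11 and Kcnj8 stood at 76.2 ± 17.9 and 44.6 ± 10.3 CPM (SD, n = 5) in Sham Veh and 81.9 ± 19.4 and 60.0 ± 8.29 CPM (SD, n = 3) in TAC Veh mice, and neither passed (adjusted p = 0.697 and 0.106).

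**Figure D3:**
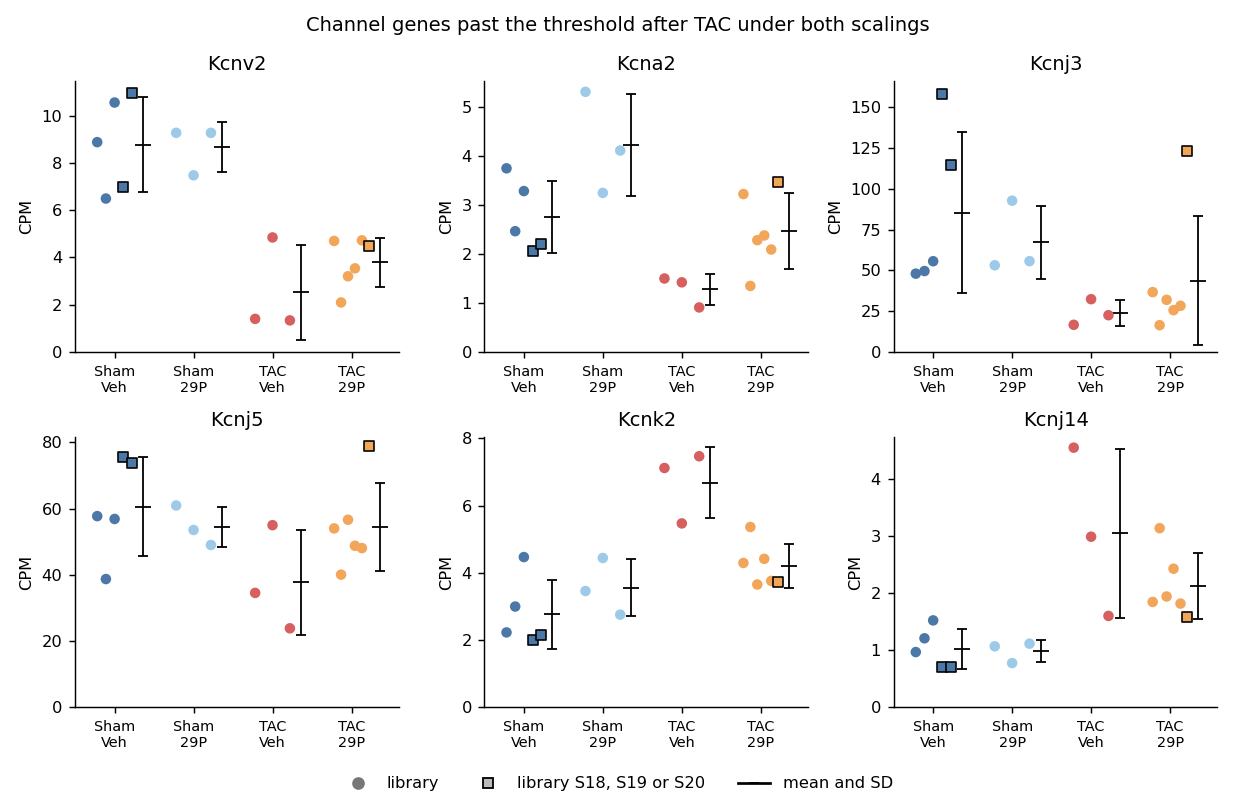
CPM (y) of 6 channel genes in every library of the 4 groups (x), with squares for S18, S19 and S20 and bars for the mean and SD. Kcnv2, Kcna2 and Kcnj3 are lower and Kcnk2 and Kcnj14 higher in all 3 TAC Veh than in all 5 Sham Veh libraries, while Kcnj5 overlaps.

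Of the 2-pore channels (7 members, 5 tested), 2 were higher and none lower, and with TMM factors 1 was higher and 1 lower. Kcnk2 (TREK-1, opened by stretch and lipids; chromosome 1, 189207930 to 189402273) was at 2.23, 3.00, 4.47, 2.01 and 2.15 CPM in Sham Veh and 7.11, 5.47 and 7.46 CPM in TAC Veh libraries. All TAC Veh libraries lay above all Sham Veh libraries. The log2 fold change was 1.29 (SE 0.24, limma adjusted p = 0.00274), or 2.45-fold, 0.96 with TMM factors (adjusted p = 0.0176) and 1.07 without S18 to S20 (adjusted p = 0.0181). None of the 8 fits with 1 library left out lost the call, the highest adjusted p being 0.0278, but with TMM factors and without S18 to S20 it did not pass (adjusted p = 0.0955). The ratio of Kcnk2 to Kcnk3 per kb was 0.00963 to 0.0259 in Sham Veh and 0.0355 to 0.0587 in TAC Veh libraries, without overlap. For the other pairs of members whose ratio was taken, the Veh groups overlapped. In the Sham 29P library S14 the ratio of Kcnk2 to Kcnk3 was 0.0372, within the TAC Veh range. Kcnk3 itself was at 147.5 ± 33.5 CPM (SD, n = 5) and 125 ± 23.6 CPM (SD, n = 3), a log2 fold change of −0.22 (adjusted p = 0.380) that passed with TMM factors only (−0.56, adjusted p = 0.0210). Kcnk6 (TWIK-2) was at 6.31 to 8.24 CPM in Sham Veh and 8.33, 9.49 and 12.95 CPM in TAC Veh libraries, with a log2 fold change of 0.54 (SE 0.19, adjusted p = 0.0449). It did not pass with TMM factors (0.20, adjusted p = 0.476) or without S18 to S20 (0.58, adjusted p = 0.0758), and lost the call in 7 of 8 fits with 1 library left out (all but that without S20), with changes from 0.36 without S16 to 0.67 without S2. Kcnk5 (TASK-2) did not pass (0.54, adjusted p = 0.249), and Kcnk1 (TWIK-1) was below the filter, at no more than 0.293 CPM.

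Of the calcium- or sodium-activated channels (9 members, 8 tested, with the auxiliary Kcnmb family counted here), 2 were higher and none lower, and none passed with TMM factors. Kcnt2 (Slick, activated by sodium) was at 3.15, 5.50, 5.13, 5.54 and 4.25 CPM in Sham Veh and 10.4, 8.07 and 9.33 CPM in TAC Veh libraries, with no overlap. Kcnt2 rose by 0.98 on the log2 scale (SE 0.28, limma adjusted p = 0.0195), 0.65 with TMM factors (adjusted p = 0.150) and 1.03 without S18 to S20 (adjusted p = 0.0301), and did not pass without S2 (0.90, adjusted p = 0.108) or S16 (0.97, adjusted p = 0.0539). Kcnn3 (SK3) was at 1.89 ± 0.625 CPM (SD, n = 5) and 3.22 ± 0.547 CPM (SD, n = 3), a log2 fold change of 0.78 (SE 0.27, adjusted p = 0.0416). It did not pass with TMM factors (0.46, adjusted p = 0.237) or without S18 to S20 (0.71, adjusted p = 0.104), and lost the call in 6 of 8 fits with 1 library left out (all but S5 and S13, changes from 0.62 to 0.93). Kcnn1 and Kcnn2, the other small conductance channels, did not pass (0.18 and −0.29, adjusted p = 0.525 and 0.308), nor did Kcnn4 (0.87, adjusted p = 0.269), the large conductance pore Kcnma1 (1.30, adjusted p = 0.232) and its smooth muscle subunit Kcnmb1 (0.31, adjusted p = 0.399). With TMM factors Kcnn1 and Kcnmb1 had negative values (−0.15 and −0.01).

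Of the auxiliary subunits other than Kcnmb (11 members, 9 tested), only Kcne1l passed, and none with TMM factors. Kcne1l (Kcne5) was near the detection limit, at 0.0421, 0.0895, 0, 0.179 and 0.3996 CPM in Sham Veh and 0.648, 0.440 and 0.586 CPM in TAC Veh libraries, with a log2 fold change of 1.66 (SE 0.55, limma adjusted p = 0.0349) that depends on the constant of 0.1 added before logs. Only TAC libraries (S2, S16 and S18) reached 0.5 CPM for Kcne1l. It thus entered the tests only through the surgery in which it was higher. It lost the call in 6 of 8 fits with 1 library left out (all but S19 and S20), with changes from 1.399 without S13 to 1.98 without S20, and was 2.23 without S18 to S20 (adjusted p = 0.0161). Kcne4, an inhibitory subunit and the highest of its family, was at 4.56 ± 1.58 CPM (SD, n = 5) and 8.03 ± 2.42 CPM (SD, n = 3) and did not pass (0.84, adjusted p = 0.0630), but passed without S18 to S20 (1.15, adjusted p = 0.0353). Kcne1 (minK, the partner of Kcnq1) was at 2.52 ± 1.02 and 4.08 ± 0.216 CPM (0.74, adjusted p = 0.207), and Kcnab2 at 1.66 ± 0.522 and 2.62 ± 0.557 CPM (0.66, adjusted p = 0.139). Of 16 other genes that assemble with, scaffold or regulate these channels, 14 were listed and 12 tested, and none passed on either scale. Their median was 0.32, and −0.01 with TMM factors, and they include the sulfonylurea receptors Abcc8 (−0.01, adjusted p = 0.976) and Abcc9 (0.02, adjusted p = 0.928).

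Markers of other cells moved with TAC in the same libraries. All 5 fibroblast markers rose in TAC Veh against Sham Veh mice (3 with TMM factors), and their sum was 698 to 1111 CPM in Sham Veh and 1713 to 3028 CPM in TAC Veh libraries. All 4 macrophage and leukocyte markers rose (2 with TMM factors; sums of 45.5 to 73.5 and 97.0 to 156 CPM), as did all 4 pericyte markers (2 with TMM factors; sums of 757 to 1004 and 1050 to 1365 CPM). Of the 4 endothelial markers 2 rose (none with TMM factors; sums of 454 to 806 and 778 to 1031 CPM). Of the 6 working cardiomyocyte markers 1 rose, and with TMM factors 4 fell. No marker of these 5 lists was at 0 in any library, and the part of these cells in the channel changes was not tested.

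Summed by current on the deposited CPM scale, on which the median of all tested genes moved up after TAC, the groups stood as follows. The IK1 pores (Kcnj2, Kcnj12 and Kcnj4) summed to 32.1 to 53.9 CPM in Sham Veh, 49.6 to 57.5 in Sham 29P, 13.2 to 34.7 in TAC Veh and 27.9 to 42.5 CPM in TAC 29P libraries. The Sham 29P libraries lay above all TAC 29P libraries, and the Veh groups overlapped through S19 and S20. Without S18 to S20 the lowest Sham Veh sum was 37.3 CPM, above all TAC Veh sums. The slow delayed rectifier (Kcnq1 and Kcne1) summed to 12.7 to 25.8, 13.5 to 24.3, 24.4 to 30.2 and 23.6 to 35.8 CPM in the same order, and the ATP-sensitive pores to 95.1 to 145, 89.6 to 148, 114 to 157 and 119 to 182 CPM. With all libraries these overlapped between the surgeries, as did the small conductance channels, at 13.9 to 21.3, 16.8 to 19.2, 15.9 to 22.6 and 14.3 to 21.9 CPM. Without S18 to S20 the slow delayed rectifier sum was at most 24.1 CPM in Sham Veh (S5), below the lowest of TAC Veh at 24.4 CPM (S2). This gap was one of the deposited scale only. The TMM factors of S5 and S2 were 0.955 and 1.21, and dividing by them puts S5 above S2. In 29P mice the slow delayed rectifier sum still overlapped. The ATP-sensitive sum without S18 to S20 was at least 154 CPM in TAC 29P (S8), above the highest of Sham 29P at 148 CPM (S4). This gap, too, was one of the deposited scale only. The TMM factors of S8 and S4 were 1.07 and 0.966, and dividing by them puts S4 above S8. In Veh mice the ATP-sensitive sum still overlapped.

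**Figure D4:**
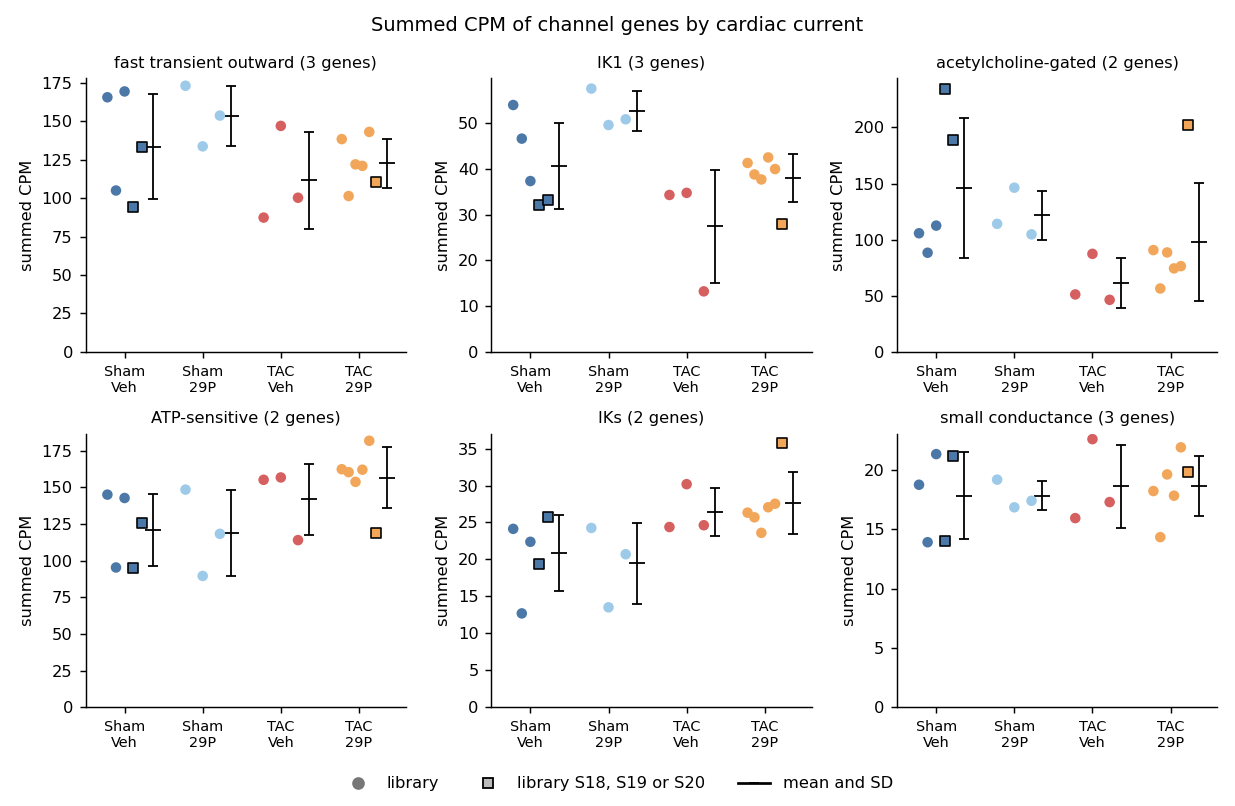
Summed CPM (y) of the channel genes of 6 cardiac currents in every library of the 4 groups (x), with squares for S18, S19 and S20 and bars for the mean and SD. The acetylcholine-gated pair sums to 88.3 to 234 in Sham Veh and 46.4 to 87.4 in TAC Veh libraries, and its 3 highest sums are those of S18, S19 and S20.

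The same surgery was compared in mice given 29P. TAC 29P differed from Sham 29P with an adjusted p of 0.05 or less for 11 of the 49 members, 3 lower (Kcnv2, Kcnd2 and Kcna2) and 8 higher (Kcnj15, Kcnn4, Kcne3, Kcne1, Kcnj14, Kcnab2, Kcnt2 and Kcnj8), where 1.15% of all genes were lower and 31.5% higher. Of these members, Kcnn4 entered the tests only through TAC libraries. With TMM factors 6 were lower (Kcnv2, Kcnd2, Kcna2, Kcnj2, Kcnn2 and Kcnd3) and 1 higher (Kcnj15), where 5.15% of all genes were lower and 6.07% higher. The groups did not overlap for 5 members (Kcnv2, Kcnj2, Kcne3, Kcnj14 and Kcnj15), against 26.1% of all genes. The median of the members was 0.25, and −0.10 with TMM factors, beside 0.36 and 0.02 for all genes. In the fit that also held the runs, Kcnj15, Kcne3 and Kcnj8 were higher (1.19, 1.78 and 0.61, adjusted p = 0.0403, 0.0497 and 0.0470) and Kcnj2 and Kcnj3 lower (−0.90 and −0.95, adjusted p = 0.0338 and 0.0471). Kcnv2 (−1.08, adjusted p = 0.0843), Kcnd2 (−0.74, adjusted p = 0.0513) and Kcna2 (−0.92, adjusted p = 0.105) did not pass there, nor did Kcnn4, Kcne1, Kcnj14, Kcnab2 and Kcnt2 (0.50 to 1.55, adjusted p from 0.0955 to 0.345). Without S18 to S20, Kcnn4, Kcnab2 and Kcnt2 did not pass (1.48, 0.84 and 0.60, adjusted p = 0.0647, 0.0649 and 0.0833), and Kcnj3 did.

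Kcnv2 was at 9.27, 7.47 and 9.27 CPM in Sham 29P libraries (S4, S14 and S15) and between 2.09 and 4.72 CPM (median 4.001) in TAC 29P libraries, without overlap. The change was −1.22 on the log2 scale (SE 0.33, limma adjusted p = 0.0142), −1.57 with TMM factors (adjusted p = 0.00814) and −1.28 without S18 to S20 (adjusted p = 0.0185), and without S14 it was −1.32 (adjusted p = 0.0520). Kcna2 was at 5.30, 3.24 and 4.11 CPM and between 1.34 and 3.46 CPM (median 2.33). The groups overlapped, since S18 at 3.46 CPM lay above S14 at 3.24 CPM. Its log2 fold change was −0.79 (SE 0.28, adjusted p = 0.0413), −1.13 with TMM factors (adjusted p = 0.0139) and −0.89 without S18 to S20 (adjusted p = 0.0256), and it lost the call in 7 of 9 fits with 1 library left out (all but S1 and S18, changes from −0.96 without S14 to −0.61 without S4). Kcnd2 was at 23.2, 34.4 and 23.5 CPM in Sham 29P and between 8.72 and 25.4 CPM (median 12.7) in TAC 29P libraries, where S18 held the 25.4 and the other 5 were at most 14.9. Its log2 fold change was −0.998 (SE 0.29, adjusted p = 0.0177), or 0.501-fold, −1.35 with TMM factors (adjusted p = 0.0118), −1.18 without S18 to S20 (adjusted p = 0.00622), and −0.81 without S14, where it did not pass (adjusted p = 0.124).

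Among the inward rectifiers, Kcnj2 was at 43.4, 41.8 and 40.7 CPM in Sham 29P and between 19.5 and 31.7 CPM (median 28.2) in TAC 29P libraries, without overlap. Its log2 fold change of −0.63 did not pass (SE 0.27, limma adjusted p = 0.0811), but passed with TMM factors (−0.98, adjusted p = 0.0285). Kcnj3 was at 53.1, 92.8 and 55.7 CPM and at 36.7, 16.4, 31.9, 25.6, 28.3 and 123 CPM (S1, S3, S8, S9, S11 and S18), and S18 alone reached the Sham 29P values. Its log2 fold change was −0.91 with S18 (SE 0.48, adjusted p = 0.146) and −1.27 without S18 to S20 (adjusted p = 0.00544), and −1.26 with TMM factors and S18 (adjusted p = 0.101). Kcnj3 over Kcnj5 per kb was 0.783 to 1.56 in Sham 29P, 0.367 to 0.609 in 5 TAC 29P libraries and 1.402 in S18. Kcnj5 itself did not pass (−0.03, adjusted p = 0.936, and −0.38 with TMM factors, adjusted p = 0.291). Kcnj14 was at 1.07, 0.775 and 1.11 CPM in Sham 29P and 1.57 to 3.13 CPM in TAC 29P libraries, without overlap. It was higher by 1.01 (SE 0.31, adjusted p = 0.0236) and at 0.68 with TMM factors (adjusted p = 0.136), and lost the call without S14 (0.86, adjusted p = 0.132) or S3 (0.90, adjusted p = 0.0512). Kcnj8 was at 49.6, 32.9 and 42.6 CPM in Sham 29P and 40.3 to 74.1 CPM in TAC 29P libraries, where S18 was the lowest. It was higher by 0.61 (SE 0.20, adjusted p = 0.0299) and at 0.25 with TMM factors (adjusted p = 0.358). Without S18 to S20 it was higher on both scales (0.73, adjusted p = 0.00529, and adjusted p = 0.0247 with TMM factors), and it lost the call in 5 of 9 fits with 1 library left out (S14, S15, S3, S9 and S11, changes from 0.45 without S14 to 0.74).

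Kcnj15 (Kir4.2), which the rule for named genes did not reach and which was chosen after its values were seen, was the one member higher on both scales here. It was at 2.26, 1.48 and 0.488 CPM in Sham 29P and between 3.20 and 6.78 CPM (median 4.45) in TAC 29P libraries, without overlap. The log2 fold change was 1.87 (SE 0.35, limma adjusted p = 0.00257), 1.54 with TMM factors (adjusted p = 0.00937) and 1.76 without S18 to S20 (adjusted p = 0.00632), and no fit with 1 library left out lost the call. In Veh mice it was at 2.31, 2.10, 1.24, 2.06 and 2.28 CPM after Sham and 4.99, 3.42 and 3.36 CPM after TAC, without overlap, with a log2 fold change of 0.95 (adjusted p = 0.0577).

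The auxiliary subunits Kcne1, Kcne3 and Kcnab2 and the channels Kcnn4 and Kcnt2 were higher in TAC 29P than in Sham 29P mice with CPM, and none of these passed with TMM factors (adjusted p from 0.0679 to 0.353). Kcne1 was at 3.97, 0.564 and 2.23 CPM in Sham 29P and between 2.76 and 7.74 CPM in TAC 29P libraries (log2 fold change 1.405, SE 0.43, limma adjusted p = 0.0227), and without S14, the library with the fewest reads, the change was 0.67 (adjusted p = 0.230). Kcne3 was at 0.231, 0 and 0.293 CPM and between 0.454 and 0.630 CPM (1.43, SE 0.42, adjusted p = 0.0186), and 0.81 without S14, which holds the 0 (adjusted p = 0.176). Kcnab2, at 2.44, 0.634 and 1.53 CPM in Sham 29P and 1.79 to 3.14 CPM in TAC 29P libraries, changed by 0.89 (adjusted p = 0.0433) and by 0.40 without S14 (adjusted p = 0.368), and lost the call in 7 of 9 fits with 1 library left out (all but S4 and S9). No Sham library reached 0.5 CPM for Kcnn4, so it entered the tests only through the surgery in which it was higher. Kcnn4, at 0.0922, 0.211 and 0 CPM in Sham 29P and 0.0894 to 1.10 CPM in TAC 29P libraries, changed by 1.68 (adjusted p = 0.0347) and lost the call in 7 of 9 fits (all but S1 and S8, 1.25 to 2.07). Kcnt2, at 4.61, 5.99 and 3.70 CPM in Sham 29P and 4.78 to 13.2 CPM in TAC 29P libraries, changed by 0.75 (adjusted p = 0.0432) and also lost it in 7 of 9 (all but S1 and S8, 0.58 to 0.92). Kcnn2 and Kcnd3 passed with TMM factors only, at −0.74 (adjusted p = 0.0334) and −0.62 (adjusted p = 0.0319), beside −0.39 and −0.27 with CPM (adjusted p = 0.150 and 0.248). Of the 12 tested partner genes, the large conductance subunit Lrrc55 (1.88, adjusted p = 0.00788) and the caveolar Cav3 (0.61, adjusted p = 0.0290) rose, and Lrrc55 rose and Abcc9 fell with TMM factors (1.56, adjusted p = 0.0319, and −0.65, adjusted p = 0.0145). In these libraries all 5 fibroblast and all 4 macrophage and leukocyte markers rose (sums of 606 to 771 and 41.3 to 85.3 CPM in Sham 29P, 1045 to 2866 and 98.9 to 122 CPM in TAC 29P libraries; 3 of each list with TMM factors), and their part was not tested.

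Whether 29P moved the channel genes within TAC was asked by comparing TAC 29P with TAC Veh. None of the 49 members passed the adjusted threshold in limma (the smallest adjusted p was 0.99998), and none did with TMM factors. At an unadjusted p of 0.05 or less, 4 were higher with 29P (Kcna2, Kcnj5, Kcnv2 and Kcnj2) and 3 lower (Kcnk2, Kcnk6 and Kcnn3), where 0.95% of all genes were higher and 1.11% lower. This comparison shares the 3 TAC Veh libraries with that of TAC Veh with Sham Veh, so the values of the 2 comparisons are not independent. Exact two-sided permutation tests of the same values, in which 84 arrangements allow a smallest p of 0.0119, are given beside the differences. For Kcna2 the difference was 0.87 (SE 0.28, limma p = 0.00641, exact p = 0.0595), with 0.906 to 1.497 CPM in TAC Veh and 1.34 to 3.46 CPM in TAC 29P libraries, and S3 alone lay among the TAC Veh values. For Kcnk2 it was −0.66 (SE 0.23, limma p = 0.0115, exact p = 0.0119). All 6 TAC 29P libraries (3.65 to 5.36 CPM) lay below all 3 TAC Veh libraries (5.47 to 7.46 CPM) for Kcnk2, the one member without overlap, against 1.83% of all genes. The other groups overlapped. Kcnj5, which the study named as rescued by 29P, differed by 0.58 (SE 0.24, limma p = 0.0274 before adjustment, exact p = 0.0952). Kcnv2 differed by 0.77 (SE 0.33, exact p = 0.143) and Kcnj2 by 0.60 (SE 0.27, exact p = 0.0833). Kcnk6 differed by −0.43 (SE 0.18, exact p = 0.0238) and Kcnn3 by −0.58 (SE 0.26, exact p = 0.0357).

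These 7 differences rested in part on the TAC Veh library S16. Without it none of them passed the unadjusted limma threshold, with Kcna2 at 0.66, Kcnk2 at −0.57, Kcnj5 at 0.29, Kcnv2 at 0.46, Kcnj2 at 0.13, Kcnk6 at −0.25 and Kcnn3 at −0.46. Of the 9 fits that left out 1 library, Kcna2 and Kcnk2 failed in that one alone, Kcnj5 in 3 (also without S2 at 0.55 and S18 at 0.46) and Kcnk6 in 4 (also without S1, S8 and S9, at −0.40 to −0.41). Kcnj2, Kcnn3 and Kcnv2 failed in 5. Beside S16 these were S1, S3, S8 and S9 for Kcnj2 (0.56 to 0.60), S12, S1, S3 and S8 for Kcnn3 (−0.53 to −0.59) and S2, S1, S11 and S18 for Kcnv2 (0.49 to 0.71). In a fit that also held the 4 runs, 6 of the 7 no longer passed and Kcnv2, at 0.91, still did. Only 1 run, S1 to S11, holds both TAC groups, with S2 as its single TAC Veh library. Without S18 to S20 Kcnv2 did not pass (0.71) and the other 6 did.

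Between Sham 29P and Sham Veh mice no member passed the adjusted threshold in limma or with TMM factors. At the unadjusted limma threshold Kcna4 was higher (0.68, SE 0.31, exact permutation p = 0.107) and Kcne3 lower (−1.18, SE 0.43, exact permutation p = 0.0357), where 1.57% of all genes were higher and 5.15% lower, and the groups overlapped for each of the 49 members (2.14% of all genes did not overlap). Kcne3 was at 0.463, 0.358, 0.665, 0.268 and 0.499 CPM in Sham Veh, and without S14 the difference was −0.57 and did not pass. Kcna4 was at 0.738, 2.33 and 1.88 CPM in Sham 29P against 0.759 to 1.05 CPM in Sham Veh libraries, and did not pass without S6, S19, S20, S14 or S15 (0.67, 0.63, 0.67, 0.38 and 0.53). The difference between the 29P change in TAC and that in Sham passed the unadjusted limma threshold for Kcnk2 (−1.04, SE 0.34) and Kcne3 (1.44, SE 0.60), where 2.85% of all genes did, and for none after adjustment (adjusted p = 0.999 for both). For Kcnk2 it was −0.79 without S18 to S20, and −0.67 in the fit that held the runs, where it did not pass. For Kcne3 it was 0.83 without S14 and 1.03 without S2, and passed in neither.

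The genes that were high in S18, S19 and S20 were marked where each of these 3 libraries lay above all other 14. This held for 3 of the 49 tested members (Kcnj3, Kcnj5 and Kcnc2), where 1.36% of all genes tested were so marked, and the 3 libraries hold both surgeries. Kcnj3 was at 123, 158 and 115 CPM in S18, S19 and S20 and from 16.4 to 92.8 CPM in the others, of which the highest was S14. Kcnj5 was at 78.9, 75.5 and 73.7 CPM against 23.9 to 61.0 CPM. Kcnc2 (Kv3.2, a fast delayed rectifier best known from neurons) was at 2.58, 0.715 and 0.949 CPM against 0.349 to 0.665 CPM, so that S18 stood above S19 and S20. With TMM factors Kcnj5 and Kcnc2 were marked and Kcnj3 was not, and no member reached a lowest value of 2 times the highest of the others, as 47 of all genes did. The ratio of the lowest of the 3 libraries to the highest of the others was 1.24 for Kcnj3, 1.21 for Kcnj5 and 1.07 for Kcnc2. Of the 6 atrial markers Myl7, Myl4 and Sln were far higher in all 3 of these libraries, Bmp10 was at 514 CPM in S18 and at most 0.224 CPM in all other libraries, and Nppa was at 3085, 3670 and 3101 CPM, within the range of the others (up to 4498 CPM, in the TAC Veh library S2). The summed markers of 3 other lists were also highest in S18. The 5 listed Schwann cell and neuron markers summed to 14.5, 10.3 and 10.9 CPM (5.38 to 10.3 CPM in the others), the 4 smooth muscle markers to 365, 242 and 362 CPM (94.8 to 301 CPM, so that S19 lay within them), and the 6 markers of the sinus node and conduction system to 58.1 CPM in S18 and at most 35.2 CPM elsewhere. The part of these cells in the channel values was not tested.

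**Figure D5:**
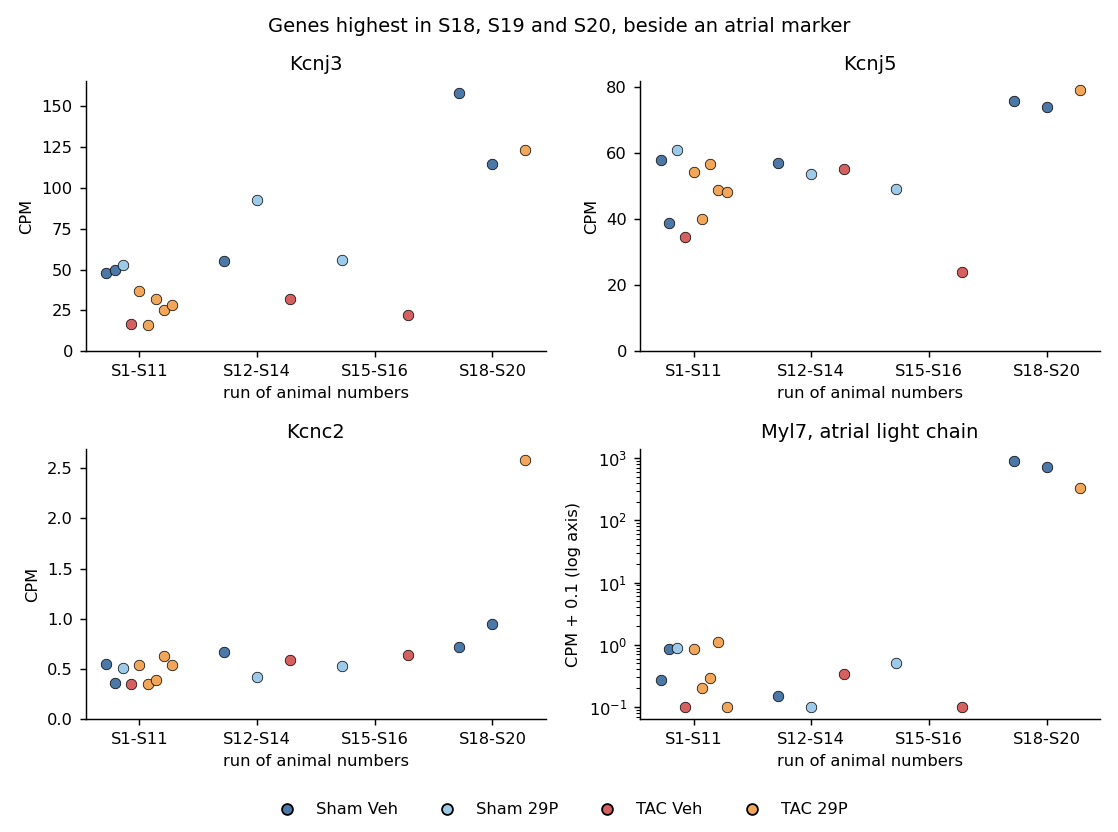
CPM (y) of Kcnj3, Kcnj5 and Kcnc2 and, on a log axis after adding 0.1, of the atrial marker Myl7, by run of animal numbers (x), coloured by group. The 3 libraries of the last run are the highest for each of the 4 genes, and within the earlier runs Kcnj3 is lower in TAC than in Sham libraries.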

How the data were processed

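Polyadenylated RNA of 17 left ventricular apices was sequenced, 1 library per mouse. Per the labels and the study's methods, Partek Flow ran the STAR 2.3.7 aligner against the mm10 build. The counting tool and strand setting are not given in the sources used here. The deposited values are CPM with 0.0001 added by the authors, which was subtracted. Depth was estimated from the smallest step between low values. Only 79.0 to 82.1% of low values lay within 0.02 of a whole step, so reads were not recovered and no count model was used. Libraries S7, S10 and S17 were not analysed here. Per the study, a Sham 29P and a TAC Veh library had met its exclusion criteria, and another TAC Veh library was removed because it clustered with Sham mice.

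Members and gene lists were chosen with earlier results of these data known. Genes with 0.5 CPM in at least 3 libraries (16218, about 10.2 reads at the median depth of 20.4 M) were fitted as log2(CPM + 0.1) with limma 3.58.1 (R 4.3.3, mean-variance trend), over 4 group means and all 17 libraries. Fold changes are on that scale, which understates those of low genes. P-values were Benjamini-Hochberg adjusted over all genes, with a threshold of 0.05. Exact permutation tests (Python 3.11.15, numpy 2.4.6) were two-sided. Scripts were tested on simulated data. Alternatives were TMM (an unweighted implementation) and median-of-ratios factors, totals without mitochondrial-encoded genes, other constants and filters, a covariate for the 4 runs of animal numbers, the compared groups alone, and leaving out libraries. Leaving out S18 to S20 with TMM factors was chosen after seeing the data. Per kb values use the merged exons of GENCODE vM21.

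Named genes were the lists of cardiac currents, the genes that passed in TAC Veh against Sham Veh on either scale, those marked in S18 to S20, those with the smallest p for 29P, and the highest of each family per kb. Some genes and markers are not reported here. Levels of genes were ranked per kb only.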

Additional observations from a re-analysis of the deposited data

Results flagged for a closer look

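In 3 of the 76 pairs of a named gene and a group of at least 4 libraries, 1 library lay farther from the others than Dixon's 95% limit, where chance alone gives about 1 in 20. Kcnc2 was at 2.58 CPM (1.42 on the log2(CPM + 0.1) scale) in the TAC 29P library S18, and the nearest of the other 5 was at 0.633 CPM. Kcne1 was at 4.33 CPM (2.15 on that scale) in the Sham Veh library S5, and the nearest was at 2.25 CPM. Kcnj12 was low in the Sham Veh library S6, at 4.61 CPM (2.24 on that scale), and the nearest was at 9.61 CPM.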

How the results depend on the processing

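No analysis paired by animal was possible because each mouse gave 1 library, and the runs of animal numbers were used as a covariate. Of 5212 alternative values of the 38 tested named genes in 5 comparisons, 5007 kept their side of the threshold, 167 no longer passed, 38 newly passed and no called value reversed. Of the 5212, 272 changed sign with no call on either side. The 7 members higher in TAC Veh than in Sham Veh became 2 with TMM factors, median-of-ratios factors or totals without mitochondrial-encoded genes, 4 with at least 1 CPM in all libraries or with the compared groups alone, 11 at an unadjusted p, 1 without S18 to S20 and with TMM factors, and 1 to 8 with 1 library left out (1 without S2, 3 without S6 or S16, 4 without S19). The 4 lower became 7 with TMM or median-of-ratios factors and 1 to 5 with 1 library left out (1 without S2 or S16). The 8 higher in TAC 29P than in Sham 29P became 1 with TMM or median-of-ratios factors, 3 with totals without mitochondrial-encoded genes or with the run as a covariate, 2 with at least 1 CPM in all libraries, 5 with the compared groups alone or without S18 to S20, 2 without S18 to S20 and with TMM factors, and 1 to 10 with 1 library left out (1 without S14, 3 without S3, 4 without S15 or S11, 5 without S9 or S18). The 3 lower became 6 with TMM or median-of-ratios factors, 7 without S18 to S20 and with TMM factors, and 0 to 4 with 1 library left out (0 without S14). At an unadjusted p, the 0 members for 29P became 4 higher and 3 lower within TAC, 1 and 1 within Sham, and 1 and 1 for the difference of the 2, and stayed at 0 with 1 library left out and an adjusted p. The 3 genes marked in S18 to S20 became 0 where the lowest had to reach 2 times the highest of the others. Beyond the scale, the cause of these shifts was not tested. At the median depth 0.5 CPM is about 10.2 reads, and 11 tested members had a mean under 1 CPM.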
